A study of Homo sapiens with 6 samples.

Results

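The VHL ubiquitin ligase complex and the hypoxia-inducible factor it controls were followed through 7 transcripts, VHL, TCEB1, TCEB2, CUL2, RBX1, HIF1A and ARNT, picked by gene symbol from the 37879 targets of the array table. Each symbol matched 1 target, and all 7 targets were detected on all 6 arrays, where detected means a detection p under 0.05 against the negative controls of the array. RNA was recovered with an anti-FLAG antibody from HEK293T cells, an established human embryonic kidney line, that had been arrested in prometaphase by nocodazole, a drug that blocks microtubule polymerization, added for 15 h at 50 ng/ml as the sample labels have it. There were 3 control IPs, from cells that received an empty vector, and 3 Stau1 IPs, whose cells were transfected with a plasmid for Stau155-FLAG, a tagged form of the double-stranded RNA-binding protein Staufen1. The question is which mRNAs come down with tagged Stau1. Both groups share the cell line, the drug and the antibody, the endogenous Stau1 is present in both, and the labels do not say whether the 3 IPs of a group came from separate cultures, so the p-values measure the spread between these arrays.

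VHL is the substrate receptor of a cullin-RING ubiquitin ligase. Elongin C (TCEB1, now ELOC) and elongin B (TCEB2, now ELOB) link it to the scaffold CUL2, and the RING protein RBX1 at the other end of the scaffold receives the ubiquitin-conjugating enzyme. In oxygenated cells the prolyl hydroxylases mark HIF1A, VHL binds the hydroxylated protein, and HIF1A is ubiquitinated and degraded. In hypoxia HIF1A escapes, pairs with ARNT and activates genes of glycolysis, glucose uptake and angiogenesis. VHL is a tumor suppressor of the kidney, and its loss is a hallmark of clear cell renal carcinoma. The arrays read mRNA in the IPs and say nothing of these proteins.

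The arrays numbered 2 are shown singly throughout, because their groups may be exchanged. Among 9884 targets with detection on all arrays, normalized signals of Stau1 IP 1 and Stau1 IP 3 correlated at 0.996 (Pearson), while the array labelled Stau1 IP 2 reached 0.940 and 0.943 with this pair and 0.977 with control IP 3. For the array labelled control IP 2 the correlation with Stau1 IP 1 was 0.983, and that with Stau1 IP 3 was 0.984, beside 0.982 with control IP 3 and 0.977 with control IP 1. These are correlations across targets, which are not independent replicates. STAU1 itself, the transcript of the transfected protein, had raw signals of 2499, 3246 and 2758 on control arrays 1 to 3 and of 2845, 1857 and 3130 on Stau1 arrays 1 to 3, so its groups overlapped. It was lowest on the array labelled Stau1 IP 2. Its detection p against the negative controls was 0.0542 on control IP 1, so by the rule of 0.05 it was not detected there. Its raw signal on that array, 2499, was nevertheless far above the negative-control median of 78.6. Failing the rule therefore does not by itself mean a signal near background, for STAU1 or for the genes below. The table does not give the position of the probes, and whether they read the plasmid transcript is not known, so STAU1 does not settle the labels. Of 7 markers set for HEK293T cells 6 were detected on all arrays, as were 6 of 6 mitotic markers, and 8 of 10 markers of other cell types, among them HBB, PTPRC, ALB and KRT5, were detected on no array. The other two, PECAM1 of endothelial cells and COL1A1 of fibroblasts, were detected on 6 and 5 arrays, and the summed raw signal of the 10 was between 875 and 1021 on the control arrays and between 861 and 1007 on the Stau1 arrays.

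VHL, the substrate receptor, varied most. Its raw signal was 393, 3940 and 754 on control arrays 1 to 3, and 4866, 445 and 4808 on Stau1 arrays 1 to 3. The array labelled control IP 2 lay with Stau1 IP 1 and 3, and the array labelled Stau1 IP 2 lay with control IP 1 and 3, so the labelled groups overlapped. The standard error between beads was between 3.08% and 5.07% of the signal, and the highest signal was 12.4 times the lowest. After normalization, on the log2 scale, VHL ran from 12.42 on Stau1 IP 1 through 12.24 on Stau1 IP 3 and 11.97 on the array labelled control IP 2 to 9.88 on control IP 3, 9.29 on the array labelled Stau1 IP 2 and 9.15 on control IP 1. The step between the third and the fourth array in this order was 2.08, and the other 4 steps were between 0.14 and 0.60. A range as wide as that of VHL, 3.27 on the log2 scale, was exceeded by few targets, since 99.96% of all targets had a range no wider.

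As labelled, the mean normalized signal of VHL was 10.33 ± 1.46 (SD, n = 3) over the control arrays and 11.32 ± 1.76 (SD, n = 3) over the Stau1 arrays. The log2 fold change, Stau1 over control, was 0.98 (standard error, SE, 1.13, 95% confidence interval from -1.86 to 3.82, limma adjusted p = 0.899 over all targets). The exact permutation test over the arrays, two-sided, gave p = 0.5, where 3 arrays against 3 cannot give less than 0.1. The difference was therefore smaller than the spread within the groups. With both arrays numbered 2 left out, VHL had a log2 fold change of 2.82 (SE 0.27, 95% confidence interval from 2.05 to 3.58), a fold of 7.04, with an adjusted p of 0.0248 from limma on 2 arrays against 2. Leaving out the array labelled Stau1 IP 2 alone gave 2.00 (limma adjusted p = 0.409), and leaving out the array labelled control IP 2 alone gave 1.80 (limma adjusted p = 0.792). These arrays were set aside because values of this kind, VHL among them, had been seen beforehand. The results without them, here and for each gene and list below, are therefore not independent evidence.

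**Figure D1:**
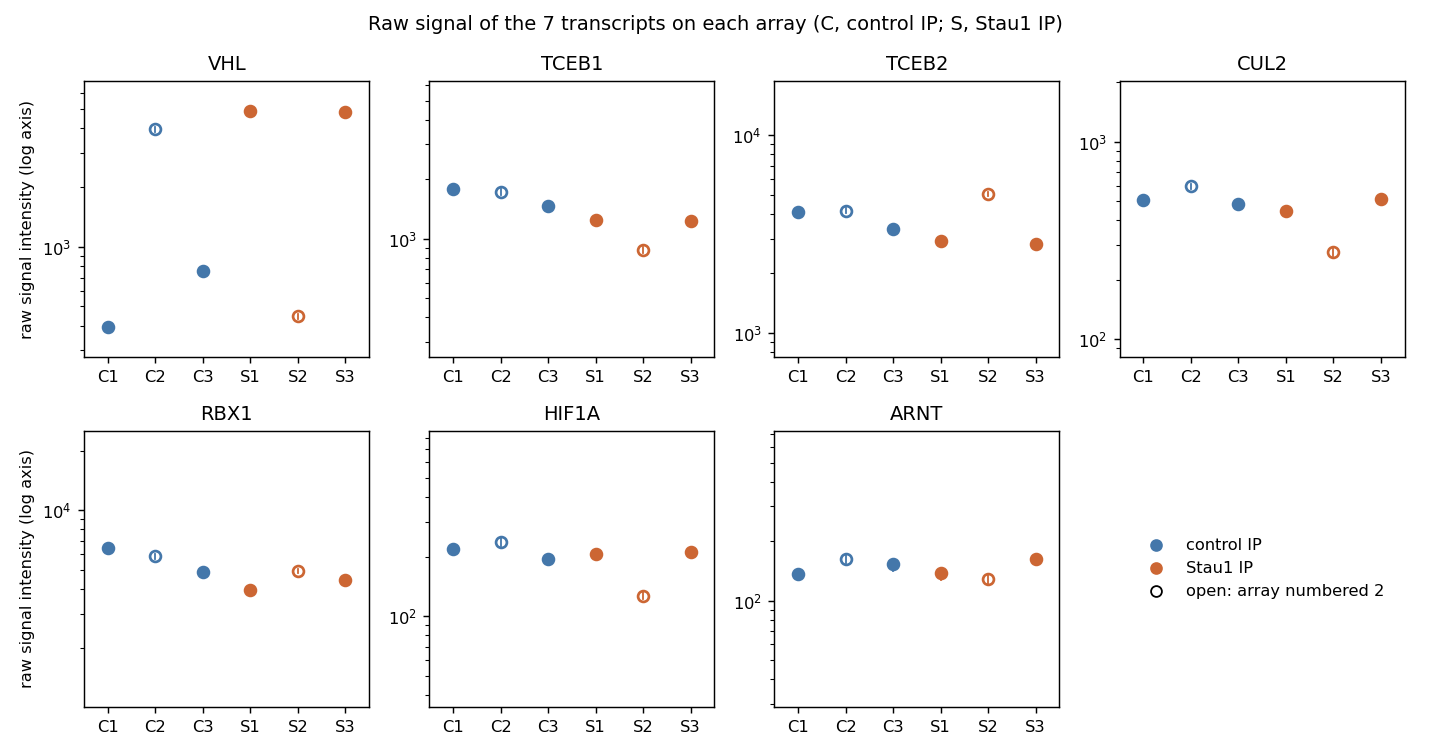
Raw signal intensity (log axis, each panel spanning the same fold) of the 7 transcripts on control IP arrays (C) and Stau1 IP arrays (S) 1 to 3, with bars for the standard error between beads, mostly hidden by the points, and open points for the arrays numbered 2. VHL was at 3940, 4866 and 4808 on C2, S1 and S3 and between 393 and 754 on the other arrays, whereas no other transcript changed by more than 2.15 times between its lowest and highest array.

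The bead numbers of VHL and of HIF1A on the arrays fit a mean over 3 probes. Those of TCEB1, TCEB2 and ARNT fit a mean over 2 probes, and those of CUL2 and RBX1 were whole numbers. Values were taken to fit within 0.01 beads. The table holds 1 combined value for each target, so the probes of VHL cannot be compared.

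None of the other 6 transcripts showed the order of arrays seen for VHL. TCEB1, elongin C, which contacts VHL directly, had raw signals of 1793, 1729 and 1463 on control arrays 1 to 3 and of 1247, 880 and 1228 on Stau1 arrays 1 to 3. Each Stau1 IP array was below each control IP array, and the lowest was the array labelled Stau1 IP 2. The normalized signal was 10.88 ± 0.17 (SD, n = 3, log2) over the control arrays and 10.28 ± 0.21 (SD, n = 3) over the Stau1 arrays. The log2 fold change was -0.60 (SE 0.14, 95% confidence interval from -0.94 to -0.26), with an adjusted p of 0.305 from limma that did not pass.

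TCEB2, elongin B, had raw signals of 4093, 4160 and 3367 on the control arrays and of 2909, 5057 and 2800 on the Stau1 arrays. It was the member for which the array labelled Stau1 IP 2 was the highest of all, and the groups overlapped. Its normalized signal was 12.03 ± 0.14 (SD, n = 3, log2) over the control arrays and 11.81 ± 0.44 (SD, n = 3) over the Stau1 arrays. The log2 fold change of -0.22 (SE 0.23, limma adjusted p = 0.883) became -0.46 (SE 0.13, limma adjusted p = 0.186) without both arrays numbered 2.

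CUL2, the scaffold, had raw signals of 506, 595 and 481 on the control arrays and of 445, 277 and 513 on the Stau1 arrays. The raw values of the groups overlapped, since Stau1 IP 3 lay above control IP 1 and 3. After normalization they did not, with 9.38 ± 0.07 (SD, n = 3, log2) over the control arrays and 9.02 ± 0.23 (SD, n = 3) over the Stau1 arrays. The log2 fold change was -0.36 (SE 0.12, 95% confidence interval from -0.66 to -0.06, limma adjusted p = 0.478).

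RBX1, the RING subunit, had raw signals of 6478, 5858 and 4847 on the control arrays and of 3943, 4922 and 4432 on the Stau1 arrays. In the raw values the array labelled Stau1 IP 2 lay just above control IP 3, and after normalization the groups lay apart, with 12.57 ± 0.20 (SD, n = 3, log2) over the control arrays and 12.17 ± 0.09 (SD, n = 3) over the Stau1 arrays. The log2 fold change was -0.41 (SE 0.11, 95% confidence interval from -0.68 to -0.13, limma adjusted p = 0.360).

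HIF1A, the oxygen-regulated subunit of the transcription factor, was dim. Its raw signals were 218, 237 and 195 on the control arrays and 206, 127 and 212 on the Stau1 arrays, against a negative-control median between 77.6 and 89.6. The array labelled Stau1 IP 2 stood below the others, and in the raw values the groups overlapped. The normalized signal was 8.31 ± 0.11 (SD, n = 3, log2) over the control arrays and 8.03 ± 0.26 (SD, n = 3) over the Stau1 arrays, a log2 fold change of -0.28 (SE 0.14, limma adjusted p = 0.693). Without both arrays numbered 2 it was -0.16 (SE 0.07, limma adjusted p = 0.427).

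ARNT, the constitutive partner of HIF1A, was dim as well. Its raw signals were 136, 162 and 153 on the control arrays and 137, 129 and 162 on the Stau1 arrays, and the groups overlapped. The log2 fold change was -0.09 (SE 0.05, 95% confidence interval from -0.22 to 0.04, limma adjusted p = 0.743). The transformation acts as log2 of the signal above background plus a constant between 120 and 163 on the 6 arrays, so it understates changes of transcripts as dim as ARNT and HIF1A.

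**Figure D2:**
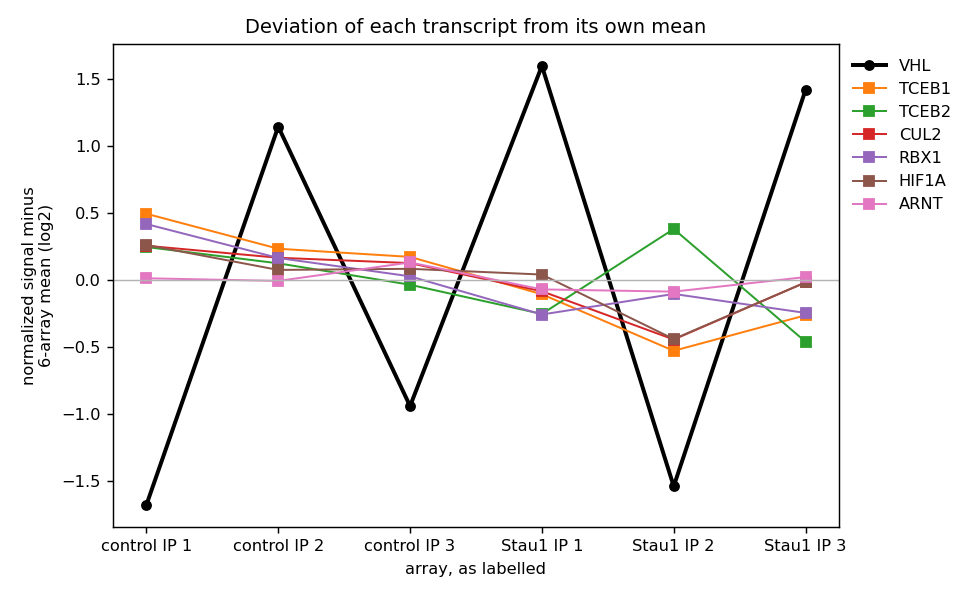
Normalized signal of each transcript on each array minus its mean over the 6 arrays (log2), with lines that join the points of a transcript and imply no order of arrays. VHL (black) moved over a range of 3.27, and the other 6 transcripts over ranges of 0.22 to 1.02.

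The 7 transcripts were then read together. By the threshold of the methods, a fold above 2.5 with an unadjusted p under 0.05, 0 of 7 were enriched in Stau1 IPs as labelled, where 0.00264% of all targets were, and 0 of 7 were depleted, where 0% of all targets were. The adjusted p was passed by 0 of 7, against 0.00264% of all targets in either direction, by limma. With an unadjusted p under 0.05 at any fold, 3 of 7 were lower, TCEB1, CUL2 and RBX1, and 0 were higher. All targets gave 5.2% lower and 3.48% higher, and the targets detected on all arrays gave 13.1% lower and 8.25% higher. After normalization all Stau1 IP arrays lay below all control IP arrays for 4 of 7, TCEB1, CUL2, RBX1 and HIF1A. This compares with 8.01% of all targets and 14.5% of those detected on all arrays. They lay above them for 0 of 7, against 6.29% of all targets. In the raw signal the groups lay apart for TCEB1 alone. For HIF1A the normalized gap between the groups was only 0.03 (log2), from control IP 2 to Stau1 IP 1. The median log2 fold change of the 7 was -0.28, beside -0.01 for the targets with detection on all arrays. Run on these values, the methods' t-test called 0 of 7 at its threshold, left 0 after Benjamini-Hochberg adjustment and gave 2 lower with an unadjusted p under 0.05.

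Without both arrays numbered 2, 1 of 7 transcripts was enriched at the threshold of the methods, VHL, where 0.599% of all targets and 1.97% of those detected on all arrays were, and 0 were depleted, where 0.0396% of all targets were. It was also the only 1 of the 7 that passed the adjusted p upward, which 3.08% of all targets and 9.03% of those detected on all arrays did by limma. Downward, 0 of 7 passed it, where 2.09% of all targets and 6.97% of those detected on all arrays did. An unadjusted p under 0.05 downward was reached by 4 of 7, TCEB1, TCEB2, CUL2 and RBX1, beside 8.53% of all targets and 24.8% of those detected on all arrays. The folds of these 4, 0.70 for TCEB1, 0.73 for TCEB2, 0.85 for CUL2 and 0.72 for RBX1, were far from the 2.5-fold threshold. Upward, 1 of 7, VHL, reached it, beside 8.81% of all targets and 23.1% of those detected on all arrays. Each transcript was then taken as its change from its own mean over the 6 arrays, since the levels of different probes cannot be compared. The change of VHL minus the mean change of the other 6 transcripts was -1.96, 1.02 and -1.02 (log2) on control arrays 1 to 3 and 1.72, -1.33 and 1.58 on Stau1 arrays 1 to 3. As labelled, this difference was 1.31 larger in Stau1 IPs, with p = 0.3 by a two-sided exact permutation test, so that the change of VHL was not shown to differ from that of its partners. It was between 0.66, without control IP 1, and 2.30, without the array labelled Stau1 IP 2, when single arrays were left out, and 3.14 without both arrays numbered 2, where the exact permutation test gave p = 0.333, the smallest it can give for 2 arrays against 2. The mean of the other 6 was 10.29, 10.14 and 10.10 on control arrays 1 to 3 and 9.89, 9.81 and 9.85 on Stau1 arrays 1 to 3, and the arrays numbered 2 lay within the order of the labels.

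Over the 6 arrays, the normalized signal of VHL correlated at 0.16 with HIF1A, 0.09 with CUL2, -0.16 with TCEB1, -0.17 with ARNT, -0.56 with RBX1 and -0.77 with TCEB2 (Pearson, n = 6 arrays, which share 1 normalization). TCEB1, CUL2 and HIF1A ran alike, with 0.94 between TCEB1 and CUL2, 0.96 between CUL2 and HIF1A and 0.90 between TCEB1 and HIF1A. The array labelled Stau1 IP 2 was the lowest for 4 of the 7 transcripts, TCEB1, CUL2, HIF1A and ARNT. Control IP 1 was the highest for 4 of 7, TCEB1, CUL2, RBX1 and HIF1A. The shares of all targets lowest or highest on these arrays were not counted, so neither count sets the members apart. Fewest targets were detected on the array labelled Stau1 IP 2, 11635 beside 12226 to 13054 on the other arrays.

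**Figure D3:**
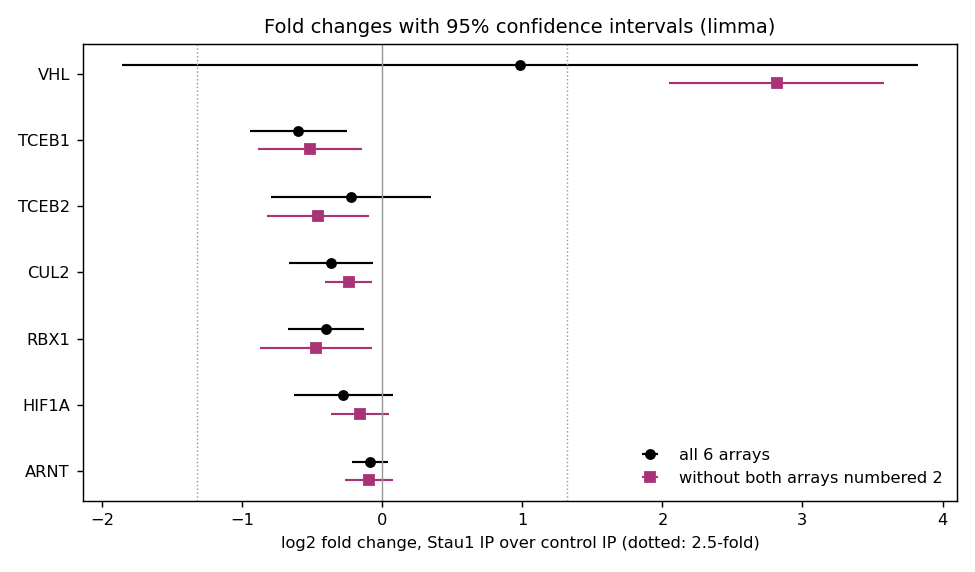
Log2 fold change of each transcript, Stau1 IP over control IP, with its 95% confidence interval from limma, for all 6 arrays as labelled (black circles) and without both arrays numbered 2 (purple squares); dotted lines mark a 2.5-fold change. The interval of VHL ran from -1.86 to 3.82 with all arrays and from 2.05 to 3.58 without those arrays, while those of the other transcripts stayed within 2.5-fold under both.

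The other genes of the pathway were read from 4 lists. The first held 22 genes that sense oxygen or bind HIF and VHL, of which 15 were detected on all arrays. By limma 0 were enriched, 0 depleted and 0 passed the adjusted p, and the median log2 fold change was -0.0009. Of all targets 0.00264% were enriched, 0% depleted and 0.00264% past the adjusted p. Counts of 0 as labelled therefore do not set this list or the other lists apart. With an unadjusted p under 0.05, 5 of 22 were lower and 1 was higher, UBE2S, which was detected on 0 arrays. Beside these stood 5.2% and 3.48% of all targets, and 13.1% and 8.25% of those detected on all arrays. The 3 genes detected on all arrays with the largest change were all lower. VBP1, a prefoldin subunit first named for its binding to VHL, had -0.74 (SE 0.23, limma adjusted p = 0.442), HSP90AA1, a chaperone that stabilizes HIF1A, had -0.69 (SE 0.13, adjusted p = 0.241), and CREBBP, a coactivator of HIF, had -0.35 (SE 0.11, adjusted p = 0.477). After normalization all Stau1 IP arrays lay below all control IP arrays for these 3 genes, and in the raw signal this held for VBP1 and HSP90AA1, not for CREBBP. The raw signal of HSP90AA1 was 9882, 9399 and 7892 on the control arrays and 5736, 4937 and 6368 on the Stau1 arrays. EGLN3, a prolyl hydroxylase that is itself induced by HIF and was named after its values were seen, had 0.19 as labelled (limma adjusted p = 0.828) and 0.41 without both arrays numbered 2 (limma adjusted p = 0.0279).

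The second list held 31 genes of the cullin-RING machinery at large, and 21 of them were detected on all arrays. Some are parts of other cullin ligases and not of the VHL ligase, such as the other cullins, RNF7 and SKP1A. The counts and medians of this list are therefore not those of machinery that the VHL ligase uses. Again 0 were enriched, 0 depleted and 0 passed the adjusted p by limma. With an unadjusted p under 0.05, 9 of 31 were lower, beside 5.2% of all targets and 13.1% of those detected on all arrays, and 0 were higher. For 10 of 31 all Stau1 IP arrays lay below all control IP arrays after normalization, beside 8.01% of all targets and 14.5% of those detected on all arrays. The median log2 fold change was -0.21, and -0.29 over the detected genes, beside -0.01 for all targets so detected. It stayed below 0 under each alternative run that could change it, at -0.05 with neqc and -0.10 without both arrays numbered 2. NEDD8, the ubiquitin-like modifier that activates cullins, had raw signals of 26727, 28634 and 21949 on the control arrays and of 14789, 20384 and 18344 on the Stau1 arrays, which did not overlap. Its log2 fold change was -0.50 (SE 0.08, limma adjusted p = 0.201). NAE1, a subunit of the enzyme that activates NEDD8, had -0.75 (SE 0.17, adjusted p = 0.310), and COPS5, the subunit of the COP9 signalosome that removes NEDD8 from cullins, had -0.66 (SE 0.14, adjusted p = 0.278). Without both arrays numbered 2, 4 of 31 passed the adjusted p downward, CUL4A, UBE2F, COPS6 and SKP1A, beside 2.09% of all targets and 6.97% of those detected on all arrays, and 0 upward. UBE2F and COPS6 were detected on all arrays, CUL4A on 4 and SKP1A on 0, which by itself does not place SKP1A at background. These 4 were named after their values were seen.

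The third list held 35 other partners of elongin B and C, most of them substrate receptors that use the same adaptor as VHL, and 26 were detected on all arrays. As labelled, 0 were enriched, 0 depleted and 0 passed the adjusted p by limma, with a median log2 fold change of 0.04. At an unadjusted p under 0.05, 4 of 35 were higher and 2 lower. Beside these stood 3.48% and 5.2% of all targets, and 8.25% and 13.1% of those detected on all arrays. KLHDC3, a Kelch substrate receptor of CUL2 ligases, had raw signals of 2787, 8932 and 4102 on control arrays 1 to 3 and of 12630, 3737 and 14198 on Stau1 arrays 1 to 3. As with VHL, the arrays labelled control IP 2, Stau1 IP 1 and Stau1 IP 3 were the 3 highest. Its log2 fold change was 0.88 (SE 0.67, limma adjusted p = 0.829) as labelled and 1.94 (SE 0.19, limma adjusted p = 0.0240) without both arrays numbered 2. The second value is not independent evidence, since those arrays were set aside after values of this kind had been seen.

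RAB40C, a small GTPase with a SOCS box, had raw signals of 1352, 2737 and 1920 on the control arrays and of 3975, 2120 and 4671 on the Stau1 arrays. Its log2 fold change was 0.73 (SE 0.35, limma adjusted p = 0.663) as labelled and 1.25 (SE 0.15, limma adjusted p = 0.0360) without both arrays numbered 2. Its paralog RAB40B had -0.60 (SE 0.15, limma adjusted p = 0.331), with all Stau1 IP arrays below all control IP arrays. Without both arrays numbered 2, 2 of 35 were enriched at the threshold of the methods, KLHDC3 and ZYG11B, where 0.599% of all targets and 1.97% of those detected on all arrays were. The adjusted p was passed upward by 7 of 35, beside 3.08% of all targets and 9.03% of those detected on all arrays, and downward by 0. For the reason given with VHL, these counts and the fold changes without both arrays numbered 2 are not independent evidence. ZYG11B, a receptor that CUL2 uses for proteins beginning with glycine, was named after its values were seen. Its raw signals were 452, 2574 and 804 on the control arrays and 2341, 321 and 2641 on the Stau1 arrays, and its log2 fold change was 0.34 as labelled (SE 0.87, limma adjusted p = 0.961) and 1.72 without both arrays numbered 2 (SE 0.23, limma adjusted p = 0.0440).

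The fourth list held 40 target genes of HIF, of which 29 were detected on all arrays. As labelled, 0 were enriched, 0 depleted and 0 passed the adjusted p by limma. At an unadjusted p under 0.05, 5 of 40 were lower and 3 were higher, among them JMJD2B, which was detected on 0 arrays. Beside these stood 5.2% and 3.48% of all targets, and 13.1% and 8.25% of those detected on all arrays. The log2 fold changes lay between -0.45 and 0.49 with a median of 0.03. SLC2A1, the glucose transporter GLUT1, had raw signals of 702, 1544 and 1009 on the control arrays and of 2161, 725 and 2280 on the Stau1 arrays. Its log2 fold change was 0.49 (SE 0.44, limma adjusted p = 0.861) as labelled and 1.14 (SE 0.15, limma adjusted p = 0.0397) without both arrays numbered 2. BNIP3, a mitophagy receptor, had -0.45 (SE 0.16, limma adjusted p = 0.507). PFKP, a phosphofructokinase of glycolysis, had -0.43 (SE 0.17, limma adjusted p = 0.579) and -0.70 without both arrays numbered 2 (limma adjusted p = 0.0321). Without those arrays 4 of 40 passed the adjusted p upward, beside 3.08% of all targets and 9.03% of those detected on all arrays, and 1 downward, beside 2.09% and 6.97%. Of the 40, 0 were enriched or depleted at the threshold of the methods, where 0.599% of all targets were enriched and 0.0396% depleted. For this list too, the results without both arrays numbered 2 are not independent evidence.

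**Figure D4:**
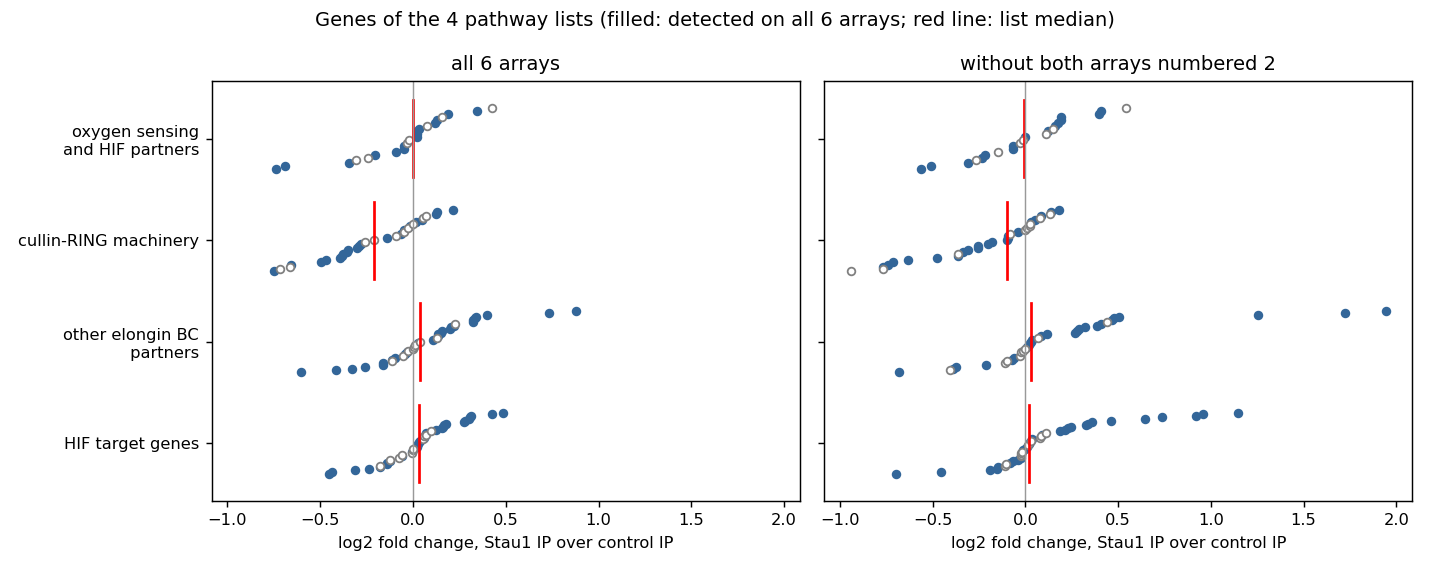
Log2 fold change, Stau1 IP over control IP, of every gene of the 4 pathway lists for all 6 arrays (left) and without both arrays numbered 2 (right), ordered by value within a list, with filled points for genes detected on all 6 arrays and red lines for list medians. With all arrays the medians were -0.0009, -0.21, 0.04 and 0.03 from top to bottom, and KLHDC3 and ZYG11B lay beyond 2.5-fold on the right, at 1.94 and 1.72.

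To find the targets whose pattern over the 6 arrays was most like that of VHL, the 132 targets with a symbol that were detected on all arrays and varied at least 0.5 times as much were ranked by Pearson correlation. The highest were MRPS16, a protein of the mitochondrial ribosome (0.9967), FOXRED2, a flavoprotein of the endoplasmic reticulum (0.9966), ATPBD1B, a GTPase (0.9963), RBBP9, a serine hydrolase that binds the retinoblastoma protein (0.9962), and CTSB, the lysosomal protease cathepsin B (0.9959). Each value rests on 6 arrays and was picked as one of the highest, so it describes a pattern and was not tested. MRPS16 had raw signals of 997, 9489 and 1605 on the control arrays and of 13858, 1007 and 14299 on the Stau1 arrays. All 5 were highest on the arrays labelled control IP 2, Stau1 IP 1 and Stau1 IP 3. Their log2 fold changes were between 0.60 for RBBP9 and 1.22 for MRPS16 as labelled and between 1.63 and 3.34 without both arrays numbered 2. The other 6 members varied too little to be ranked. Their SD over the arrays, 0.08 for ARNT to 0.37 for TCEB1, was less than 0.5 times that of VHL, 1.54, so none of them entered the ranking.

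**Figure D5:**
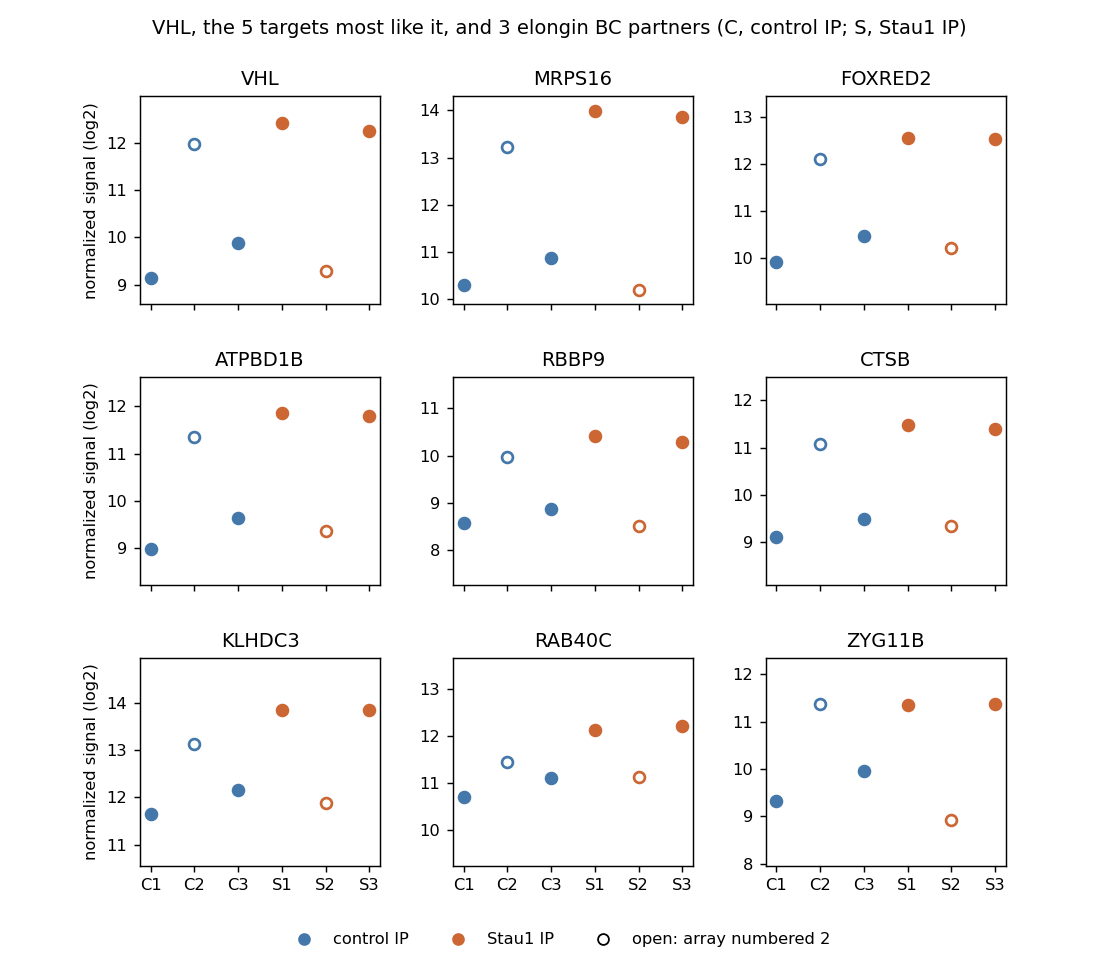
Normalized signal (log2, each panel spanning the same range) of VHL, the 5 targets most like it over the arrays, and the elongin partners KLHDC3, RAB40C and ZYG11B on control IP arrays (C) and Stau1 IP arrays (S), with open points for the arrays numbered 2. In each panel C2, S1 and S3 lay above C1, C3 and S2. For VHL they were at 11.97, 12.42 and 12.24 against 9.15, 9.88 and 9.29. The 5 targets were picked by correlation with VHL on these arrays and ZYG11B after its values were seen, so their shared order follows from that choice. RAB40B, named from the same elongin list and not drawn, had all control arrays above all Stau1 arrays.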

How the data were processed

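RNA from 3 control IPs and 3 Stau1 IPs was read on 6 arrays of the Illumina HumanWG-6 v3 type. The authors deposited signal intensity per target as BeadStudio wrote it, with the probes of a target combined and neither background subtraction nor normalization, beside the standard error between beads (also an intensity), the bead number and a p-value for detection against the negative controls. The genome build of the annotation is not given in the sources used here. The median number of beads was 41 on each array. The number of arrays limits the precision.

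The chain of the methods was rebuilt, since its software was not used here. The median of the negative controls, taken from the 200 targets with a detection p nearest 0.5, was subtracted. A variance stabilizing transformation was fitted on each array to the SD between beads over 500 bins, leaving out the dimmest 33.3% of targets. Its background constant came from targets whose detection p exceeded 0.01 and reached the minimum of 1 on all arrays. A monotone spline of 10 knots then mapped each array on control IP array 2, whose group may be exchanged. Runs that left out arrays were not normalized anew, so this array still set their scale. Groups came from the sample titles and were compared with lmFit and eBayes of limma 3.58.1 (R 4.3.3, mgcv 1.9.3) over all 37879 targets, with no filter and Benjamini-Hochberg adjustment. Python 3.11.15 with matplotlib 3.10.9 made the plots. The steps were tested on simulated arrays.

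The members, lists and tests were chosen with earlier results of these data known. Named were the 7 members, STAU1, in each of 4 lists the 3 genes with the largest absolute log2 fold change among those detected on all 6 arrays, and the 5 targets most like VHL that varied at least 0.5 times as much. EGLN3, UBE2S, CUL4A, UBE2F, COPS6, SKP1A, ZYG11B and JMJD2B were named later. The alternatives were neqc, no background correction, shifted log2 values, median centring, quantile normalization, none between arrays, filters on detection at 3 and 6 arrays, a 2-fold threshold, eBayes with trend, a replicate block, the methods' t-test, and leaving out each array or both arrays numbered 2. The sequences of the probes and of the proteins were not used here.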

Additional observations from a re-analysis of the deposited data

How the results depend on the processing

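The log2 fold changes of TCEB1, TCEB2, CUL2, RBX1 and HIF1A kept their sign under all those of 18 alternatives that could change it. They never passed the adjusted p under any of the 18. Their size moved, between -0.05 (without Stau1 IP 3) and -0.47 (without the array labelled Stau1 IP 2) for TCEB2, -0.15 (neqc) and -0.48 (shifted log2) for CUL2, -0.04 (neqc) and -0.55 (shifted log2) for HIF1A, -0.48 and -0.76 for TCEB1 and -0.30 and -0.49 for RBX1. Without the array labelled Stau1 IP 2, CUL2 was -0.23 and HIF1A -0.13. Filtering on detection, blocking by replicate, a trend in eBayes and the t-test of the methods cannot change a log2 fold change. Each repeated the value as labelled, so these runs do not test its sign. For VHL the value, 0.98 as labelled, was above 0 wherever it could change, between 0.39 and 2.82. It passed the adjusted p under 2 of the 18. These were the run without both arrays numbered 2 (2.82, adjusted p = 0.0248 from limma) and that without between-array normalization (1.05, adjusted p = 4.07e-04 from limma). In the latter, 1 SD of 0.261 was used by limma for every target, smaller than that of VHL within its groups. There the median of all targets moved to 0.11 and ARNT turned to 0.013 (adjusted p = 0.973 from limma). The number of members called was 0, and 1 without both arrays numbered 2. The number past the adjusted p was 0, and 1 under both of these settings. The elongin partners called numbered 0, and 2 without both arrays numbered 2. Leaving out single arrays gave 0 to 1, with 1 without the array labelled Stau1 IP 2. STAU1, -0.20 as labelled, lay between -0.31 and 0.024 when single arrays were left out, with 0.024 without the array labelled Stau1 IP 2, and turned to 0.069 without both arrays numbered 2.

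The members lower with an unadjusted p under 0.05 numbered 3. They were 2 with median centring or the methods' t-test, and 1 under eBayes with trend or without between-array normalization (the cause was not tested). With the replicate block or without both arrays numbered 2 they were 4, and between 2 and 4 when single arrays were left out. VHL ran from 0.39 without control IP 1 to 2.00 without the array labelled Stau1 IP 2. Of all targets, 1 was enriched and 0 depleted. These counts were 3 and 6 with neqc, 9 and 7 with shifted log2 values, 14 and 0 without between-array normalization, 2 and 13 at the 2-fold threshold, 98 and 8 without the array labelled Stau1 IP 2, and 227 and 15 without both arrays numbered 2.

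Deviations from the labelled group means, set against each other for arrays of 1 number, correlated at -0.46, -0.78 and -0.38, which gives no sign of pairing. Since the arrays numbered 2 may be exchanged, it does not show that there is none. With the replicate block VHL had an adjusted p of 0.981 from limma, 0 members were called and 4 were lower with an unadjusted p under 0.05. With HIF1A and ARNT near background, small changes of either may have gone undetected.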
